A study of Drosophila melanogaster with 7 samples.

Results

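Ion channel and calcium store genes were followed in sorted cells of the adult Drosophila melanogaster midgut in which Scute was overexpressed, and in the matching wild-type cells. The set held 39 of the 17481 genes in the deposited expression table. Its members were chosen by gene symbol, as the potassium, sodium, calcium, Trp and Piezo channels and the genes of the endoplasmic reticulum calcium store. There were 37 members under their present symbol and 2 under an older one, SERCA as Ca-P60A and sand as CG8713.

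Ion channels are membrane proteins that let selected ions pass when they sense voltage, stretch, temperature, chemicals or an internal messenger. In nerve and endocrine cells, voltage-gated calcium channels couple electrical activity to the release of transmitter or hormone, and potassium channels end the activity. In the fly midgut, stem cells renew the epithelium and give rise to absorptive enterocytes and hormone-secreting enteroendocrine cells. Calcium levels in these stem cells are known to affect their division, through the store pump SERCA, the release and entry channels of the store, TrpA1 and Piezo. Piezo is also known to mark precursors of enteroendocrine cells.

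The ScOE group held 4 libraries with the genotype Sc overexpression, and the Ctrl group held 3 libraries labelled as wild type. All came from adults at day 2. About 10000 GFP-labelled cells, called intestinal stem cells in the labels, were sorted per library after elastase digestion. The driver and the transgene are not given in the sources used here. Since the labels do not state that the libraries are from different animals, each p-value reflects only library-to-library spread, which may be partly technical. Each library is a bulk sample, so fewer or more cells of a type and less or more RNA per cell cannot be told apart for any gene below.

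The overexpressed gene sc was at 66.0 to 190 FPKM (fragments scaled by transcript length and library total) in ScOE libraries and at 0.886 to 2.44 FPKM in Ctrl libraries. The stem cell and enteroblast marker esg was at 213 to 254 FPKM in ScOE and at 230 to 362 FPKM in Ctrl. Of all 8 progenitor markers 2 rose (Su(H), log2 0.86, and spdo, log2 2.58), 1 fell (Sox21a, log2 -1.31) and 5, esg and Dl among them, did not pass. FPKM does not keep read numbers. Steps between low values give the factor by which a library was divided, which is its sequencing depth only if no further scaling was applied. Relative to ScOE 3, that factor was 0.857 to 1.04 for the other ScOE libraries and 0.448 to 0.602 for Ctrl libraries. Of the low genes, 22.9% to 27.6% lay at the ratio in these libraries. Levels far below 1 FPKM may therefore be less well measured in Ctrl. The 8 defining enteroendocrine markers summed to 2684 to 8006 FPKM in ScOE and 85.3 to 956 FPKM in Ctrl. The 7 defining neuron markers summed to 19.9 to 24.3 FPKM in ScOE and 6.20 to 7.90 FPKM in Ctrl, mostly elav. The neuron markers VGlut, VAChT and ChAT stayed below 1 FPKM in every library, as did the defining glia markers repo, alrm and wrapper and the defining hemocyte markers Hml and Pxn. The third defining hemocyte marker, NimC1, reached 1.15 FPKM in Ctrl 1. Of the wider lists, 7 of 12 neuron markers were tested and all 7 rose, where 17.6% of all tested genes rose. They were elav, brp, fne, futsch, Syn, nSyb and Appl, and nSyb is also on the enteroendocrine list. Of these, brp, futsch and Syn reached 1 FPKM in no Ctrl library, where 91.4% of such genes rose. The gene fne reached it only in Ctrl 3, nSyb and Appl only in Ctrl 2 and 3, and elav in every Ctrl library. For glia, 5 of 9 markers were tested, of which Eaat1 rose and moody, nrv2 and loco fell. For hemocytes, 2 of 8 markers, srp and crq, were tested and fell. No defining marker of any type was at 0 in every library. One library stood apart: the 6 defining muscle markers summed to 85.5 FPKM in ScOE 3 and to 1.06 to 2.42 FPKM in the other ScOE libraries, against 1.02 to 5.91 FPKM in Ctrl. Of these, Mhc, Mlc2, up and wupA were high in ScOE 3, while sls and bt were not above 1 FPKM in any library. The sum of the 6 defining enterocyte markers varied within both groups, from 243 to 7741 FPKM in ScOE and from 538 to 20243 FPKM in Ctrl. Of 16 tested genes of the wider enterocyte list 0 rose and 5 fell (Myo31DF, Jon65Ai, Jon99Fi, Jon99Fii and Amy-d). Of 5 tested muscle list genes 0 rose and 2, Mlc-c and Tm1, fell. Of 16 tested enteroendocrine markers 14 rose and 0 fell, and NPF and Mip did not pass. Over all tested genes 21.3% fell. The part of these cell types in the results below was not tested. Values given below without single libraries do not test it, since the enteroendocrine sum was higher in every ScOE library than in any Ctrl library.

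Of the 39 members, 10 rose and 4 fell in ScOE relative to Ctrl. The members that rose were TrpA1, sand, Ca-alpha1D, Shab, cac, SK, Ca-beta, Piezo, Ca-alpha1T and Trpm, and those that fell were Ih, pain, Itp-r83A and NaCP60E. These calls come from limma on log2(FPKM + 1), with a Benjamini-Hochberg adjusted p under 0.05 over the 8421 genes with 1 FPKM or more in 3 or more libraries. There were 24 members in that test, 10 of which did not pass, and 15 members were below the filter. Over all tested genes 17.6% rose and 21.3% fell, 39% in all. Upper quartile scaling of the libraries made 1916 of 3167 calls rises, and equal FPKM totals 4454 of 4734, against 1484 of 3280 as deposited. On the log2 scale 9 of the rises and 1 of the falls, that of Ih, were at least 2-fold, as were 9.33% of all tested genes upward and 7.89% downward. Every ScOE library was above every Ctrl library in 12 tested members and below in 5, where the shares of all tested genes were 20.3% and 25.9%, or 46.3% in either direction. Below the filter this held upward for 3 members (Elk, na and RyR) and downward for iav, against 9.94% and 4.35% of all genes below it. The median log2 fold change of the 24 tested members was 0.52, against -0.08 for all tested genes. Of the 10 that rose, 5 (Shab, Ca-alpha1D, Ca-alpha1T, Ca-beta and TrpA1) reached 1 FPKM in no Ctrl library and entered the test only through ScOE, where 91.4% of such genes rose. All 5 also count in the median of 0.52 and lie above it, with log2 fold changes of 1.39 to 2.26. Of the 19 members that reached 1 FPKM in a Ctrl library 5 rose and 4 fell, where 14% of such genes rose and 21.3% of all tested genes fell. Of these 5, cac and SK reached 1 FPKM in 1 Ctrl library and sand in 2, so they also passed the filter only with ScOE libraries. Piezo and Trpm alone among the rises reached it in all 3 Ctrl libraries. The share of rises among genes that pass through Ctrl alone was not computed.

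The 10 rises held when any single library was left out and under all 4 other scalings of the libraries to each other. Upper quartile scaling, trimmed-mean scaling and equal FPKM totals moved the median of all tested genes upward, from -0.08 to 0.08, -0.02 and 0.68. They could hardly remove a rise, so quantile normalization is the closer check of the rises. The 4 falls were not equally firm. With every library set to the same FPKM total, which moved the median of all tested genes to 0.68, none of the 4 passed, and pain, NaCP60E and Itp-r83A had log2 fold changes above 0. Set against the median gene, all 4 were lower under each of the 5 scalings, by a log2 difference of -1.26 to -1.18 for Ih, -0.61 to -0.44 for pain, -0.42 to -0.37 for NaCP60E and -0.82 to -0.39 for Itp-r83A.

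**Figure D1:**
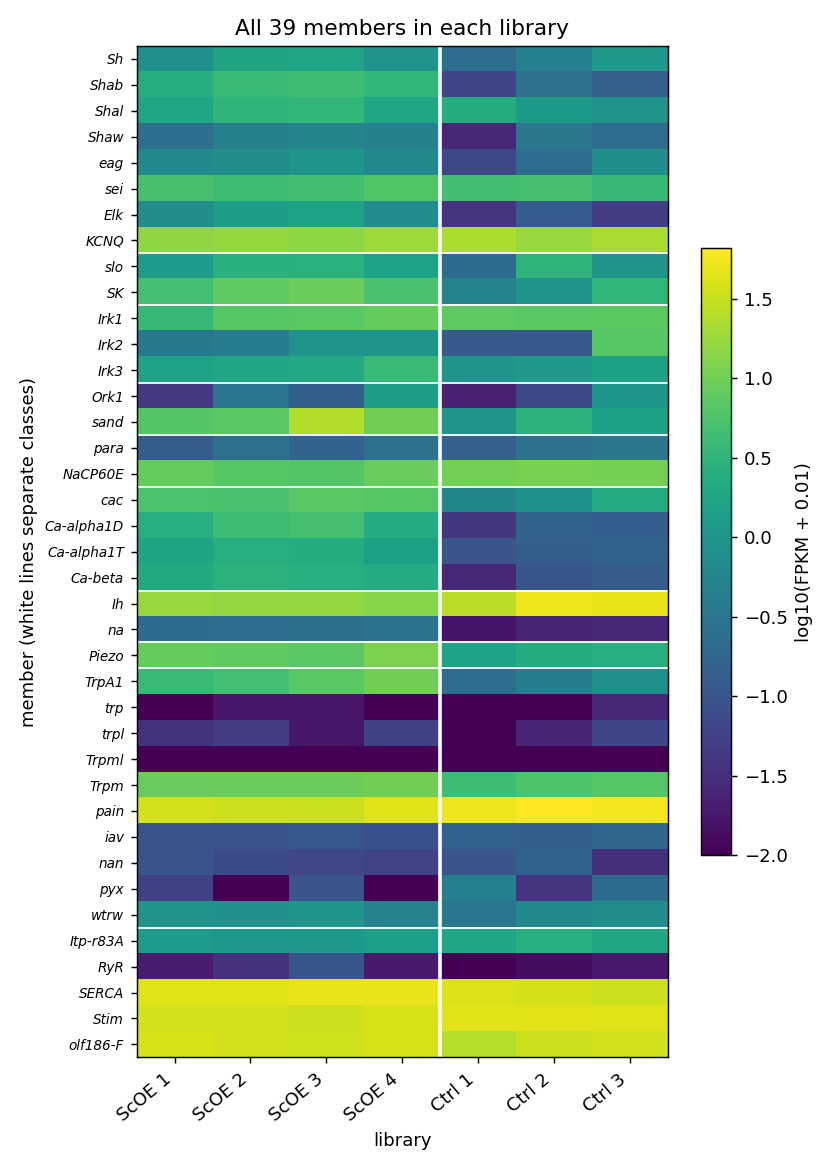
Level of all 39 members (rows, grouped by class) in the 4 ScOE and 3 Ctrl libraries (columns), coloured by log10(FPKM + 0.01). The 4 voltage-gated calcium channel genes are lighter in every ScOE library than in every Ctrl library, while the store genes SERCA, Stim and olf186-F are high throughout.

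All 4 voltage-gated calcium channel genes rose, as did 17.6% of all tested genes. Of the 4, cac alone reached 1 FPKM in a Ctrl library, and among genes that did not 91.4% rose. It did so only in Ctrl 3, so all 4 passed the filter only with ScOE libraries. Those channels open on depolarization and admit calcium, and they are known for triggering the release of vesicles. The gene cac (FBgn0263111, BDGP6 chromosome X, 11931280 to 11985087, minus strand) encodes the pore-forming subunit of the channel of fly presynaptic terminals. It was at 5.46, 5.26, 6.86 and 6.42 FPKM in ScOE 1 to 4, against 0.564, 0.910 and 2.19 FPKM in Ctrl 1 to 3. The groups did not overlap, and Ctrl 3 was the highest of its group. The log2 fold change was 1.72 ± 0.25 (SE, n = 4 and 3, adjusted p = 0.00189 in limma), and 2.01 without Ctrl 3.

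Ca-alpha1D (FBgn0001991, chromosome 2L, 16165831 to 16190540, plus strand) encodes the L-type pore subunit, known from fly muscle and nerve cells. Its levels were 2.47, 4.19, 4.96 and 2.23 FPKM in ScOE 1 to 4, against 0.0315, 0.156 and 0.128 FPKM in Ctrl 1 to 3. The ratio of group means was 32.8, and the log2 fold change, which with 1 FPKM added understates the change of genes this low, was 1.97 ± 0.24 (adjusted p = 0.000925 in limma). ScOE 2 and ScOE 3 were the higher pair. Ca-alpha1T (FBgn0264386, chromosome X, 6104085 to 6192483, minus strand), the T-type pore subunit that opens at low voltage, was at 1.67, 2.48, 2.30 and 1.46 FPKM in ScOE and at 0.0931, 0.132 and 0.157 FPKM in Ctrl. Its log2 fold change was 1.39 ± 0.17 (adjusted p = 0.000836 in limma).

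Ca-beta (FBgn0259822, chromosome 2L, 11156118 to 11203544, minus strand) encodes the cytoplasmic subunit that brings pore subunits to the membrane. It was at 2.11, 2.93, 2.46 and 2.22 FPKM in ScOE 1 to 4, against 0.0171, 0.0939 and 0.123 FPKM in Ctrl 1 to 3. The 4 ScOE libraries lay close together and far above every Ctrl library, with a log2 fold change of 1.66 ± 0.14 (adjusted p = 0.000203 in limma). The proportions among the calcium channel genes also differed between the groups at these levels. In Ctrl, however, Ca-alpha1D, Ca-alpha1T and Ca-beta were far below 1 FPKM, where levels may be less well measured. Within a library, where scaling cancels, cac made up 56.9%, 44.1%, 48.6% and 63.5% of the summed FPKM of the 3 pore subunit genes in ScOE, against 81.9%, 75.9% and 88.5% in Ctrl. Ca-beta relative to that sum was 0.219, 0.245, 0.174 and 0.220 in ScOE and 0.0248, 0.0783 and 0.0496 in Ctrl. These and all other within-library ratios and shares were chosen after the values were seen and are given as descriptions. The groups did not overlap in either.

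**Figure D2:**
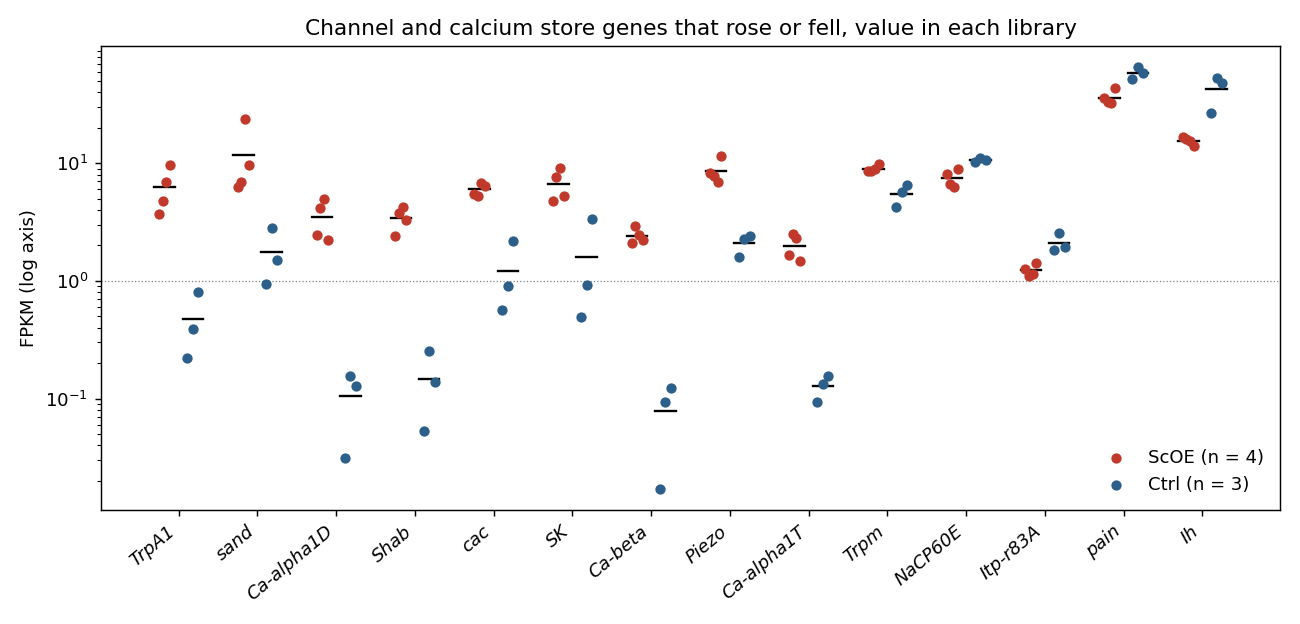
FPKM (log axis) of the 14 members that rose or fell, ordered by log2 fold change, with 1 point per library, ScOE left of Ctrl, and a bar at each group mean. The dotted line marks 1 FPKM, and no ScOE point overlaps the Ctrl points of the same gene.

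Piezo (FBgn0264953, chromosome 2L, 8163073 to 8190137, plus strand) encodes a large channel opened by membrane stretch. It was at 8.21, 7.73, 6.93 and 11.5 FPKM in ScOE 1 to 4, against 1.61, 2.27 and 2.43 FPKM in Ctrl 1 to 3. Every ScOE library was above every Ctrl library, and ScOE 4 was the highest. Mean levels were 8.60 ± 2.01 FPKM in ScOE and 2.10 ± 0.434 FPKM in Ctrl (SD, n = 4 and 3), a ratio of 4.09. The log2 fold change was 1.62 ± 0.19 (adjusted p = 0.000767 in limma) and lay between 1.48 and 1.70 with any 1 library left out. By an exact permutation test over libraries, two-sided, p was 0.0286, which is the lowest that 35 arrangements allow. That test was run for the 38 members with a value above 0, and its p is not adjusted for their number. SERCA and Stim, which did not pass in limma, had the same permutation p. The groups did not overlap in 46.3% of all tested genes.

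Among the Trp channels, cation channels opened by heat, chemicals or lipid messengers, TrpA1 and Trpm rose and pain fell. TrpA1 (FBgn0035934, chromosome 3L, 8894404 to 8905200, minus strand), a sensor of irritants and heat that is also used by fly midgut cells, had a log2 fold change of 2.26 ± 0.30 (adjusted p = 0.00128 in limma), the largest of the tested members with 1 FPKM added. With 0.1 FPKM added it was 3.52, below Ca-alpha1D (4.10), Shab (3.89) and Ca-beta (3.87). It was at 3.69, 4.81, 6.88 and 9.73 FPKM in ScOE 1 to 4, against 0.221, 0.387 and 0.804 FPKM in Ctrl 1 to 3. Both groups were spread, by a factor of 2.63 within ScOE, and still did not overlap. Trpm (FBgn0265194, chromosome 2R, 15262808 to 15309368, minus strand), a channel of the melastatin type that carries divalent cations, was at 8.61, 8.66, 8.94 and 9.81 FPKM in ScOE and at 4.23, 5.74 and 6.48 FPKM in Ctrl. Its log2 fold change was 0.64 ± 0.15 (adjusted p = 0.013 in limma), and the ScOE libraries differed little from each other.

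The fly heat and touch channel gene pain (FBgn0060296, chromosome 2R, 24921505 to 24928275, minus strand) was at 35.6, 33.2, 32.3 and 43.2 FPKM in ScOE, against 52.4, 65.7 and 58.0 FPKM in Ctrl. Its log2 fold change was -0.69 ± 0.14 (adjusted p = 0.00836 in limma) at the deposited scale and 0.16 with equal FPKM totals. It remained the most abundant of the Trp genes, with 68.9% ± 2.98 of their summed FPKM in ScOE and 89.4% ± 1.86 in Ctrl (SD, n = 4 and 3). TrpA1 made up 11.7% ± 3.57 of that sum in ScOE and 0.708% ± 0.440 in Ctrl. The ratio of Piezo to pain within a library was 0.215 to 0.266 in ScOE and 0.0307 to 0.0419 in Ctrl.

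The other 7 Trp genes did not reach the filter. The TRPA family gene wtrw was the highest of them, at 0.477 to 1.01 FPKM in ScOE and 0.310 to 0.726 FPKM in Ctrl. The chordotonal channel genes iav and nan, which act together in hearing, were at 0.0811 to 0.104 and 0.0507 to 0.0833 FPKM in ScOE, against 0.132 to 0.175 and 0.0243 to 0.145 FPKM in Ctrl. For iav every ScOE library was below every Ctrl library. The photoreceptor channel gene trpl was at 0.00779 to 0.0472 FPKM in ScOE and at 0, 0.0148 and 0.0522 FPKM in Ctrl 1 to 3. Its partner trp was listed at 0 in ScOE 1, ScOE 4, Ctrl 1 and Ctrl 2, and was at most 0.0163 FPKM elsewhere. The gene pyx was at 0.0473 and 0.0900 FPKM in ScOE 1 and 3, and its listed values were practically 0 in ScOE 2 and 4. In Ctrl 1 to 3 pyx was at 0.428, 0.0272 and 0.211 FPKM. The lysosomal channel gene Trpml was listed at 0 in all 7 libraries, as were 2699 genes of the table in all, and a listed 0 is not proof that the RNA was missing.

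Of the 15 potassium channel genes 3 rose, none fell, 7 were tested without passing and 5 were below the filter, where 17.6% of all tested genes rose and 21.3% fell. SK (FBgn0029761, chromosome X, 5340236 to 5405138, plus strand), a small-conductance channel opened by internal calcium, was at 4.76, 7.67, 9.07 and 5.27 FPKM in ScOE 1 to 4, against 0.494, 0.930 and 3.37 FPKM in Ctrl 1 to 3. The groups were apart, with Ctrl 3 nearest to ScOE. The log2 fold change was 1.69 ± 0.39 (adjusted p = 0.0127 in limma), and 2.14 without Ctrl 3. Shab (FBgn0262593, chromosome 3L, 2895017 to 2959579, plus strand), a delayed rectifier that repolarizes nerve and muscle cells, was at 2.39, 3.74, 4.28 and 3.32 FPKM in ScOE and at 0.0528, 0.252 and 0.138 FPKM in Ctrl. Its log2 fold change was 1.93 ± 0.18 (adjusted p = 0.000315 in limma).

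The gene sand (FBgn0033257, chromosome 2R, 8091696 to 8096948, plus strand), listed as CG8713, encodes a tandem-pore leak channel known from fly sleep-control neurons. It was at 6.32, 6.99, 23.8 and 9.67 FPKM in ScOE 1 to 4, against 0.948, 2.82 and 1.51 FPKM in Ctrl 1 to 3. All ScOE libraries were above all Ctrl libraries, and ScOE 3 stood well above the rest. That library had the highest sum of the defining muscle markers and also of the defining enteroendocrine markers. The log2 fold change was 2.07 ± 0.45 (adjusted p = 0.0102 in limma), and 1.69 without ScOE 3 (adjusted p = 0.00826).

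KCNQ (FBgn0033494, chromosome 2R, 10145897 to 10192394, minus strand), a slowly opening channel that damps excitability, had the highest mean of the potassium channel genes in both groups. In ScOE 3 alone, sand was above KCNQ. It was at 15.3, 16.2, 14.7 and 18.9 FPKM in ScOE, against 22.3, 16.8 and 21.4 FPKM in Ctrl. The groups overlapped, and it did not pass, with a log2 fold change of -0.29 ± 0.14 (adjusted p = 0.155 in limma) at the deposited scale and 0.53 with equal FPKM totals (adjusted p = 0.0427). Its share of the summed FPKM of the 8 voltage-gated potassium genes was 53.1% ± 5.33 in ScOE and 73.6% ± 3.75 in Ctrl (SD, n = 4 and 3), with no overlap. Shab made up 11.1% ± 2.01 of that sum in ScOE and 0.569% ± 0.434 in Ctrl.

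The other tested potassium genes did not pass at the deposited scale without library weights. With library weights Sh (log2 0.70, adjusted p = 0.0134 in limma), Shal (log2 0.78, adjusted p = 0.00675) and Irk3 (log2 0.42, adjusted p = 0.0462) passed as higher. With equal FPKM totals these 3 genes and sei passed as higher, with adjusted p of 0.0174, 0.0136, 0.0102 and 0.0103. The log2 fold change of sei was -0.040, and of slo -0.10, with library weights. The A-type channel gene Sh was at 0.810, 1.67, 1.75 and 0.940 FPKM in ScOE and at 0.226, 0.436 and 1.14 FPKM in Ctrl (log2 0.53, adjusted p = 0.14 in limma). The other A-type gene, Shal, was at 1.81 to 3.38 FPKM in ScOE and 0.926 to 2.29 FPKM in Ctrl (log2 0.53). The gene slo, which encodes the large-conductance channel opened by calcium and voltage, was at 1.28 to 2.74 FPKM in ScOE and at 0.217, 2.99 and 0.931 FPKM in Ctrl, so that Ctrl 2 was above every ScOE library. The ERG-type gene sei (log2 0.15) was at 4.16 to 5.94 FPKM in ScOE and 3.58 to 4.94 FPKM in Ctrl. The inward rectifier gene Irk1 (log2 -0.18) was at 3.62 to 8.31 FPKM in ScOE and 6.80 to 7.40 FPKM in Ctrl. Its relative Irk3 was at 1.55 to 3.67 FPKM in ScOE and 0.950 to 1.54 FPKM in Ctrl, without overlap but without passing (log2 0.51, adjusted p = 0.126 in limma). The exons of Irk1 overlap those of CG46310 and of the opposite-strand gene cnc over 62.2% of their length, and those of KCNQ overlap opposite-strand genes over 27.4%. Whether counting used strand is not given in the sources used here, so both levels are uncertain.

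Below the filter, the EAG-like gene Elk was at 0.766, 1.35, 1.61 and 0.679 FPKM in ScOE 1 to 4, against 0.0288, 0.120 and 0.0386 FPKM in Ctrl 1 to 3. Without the filter Elk passed (log2 0.96, adjusted p = 0.00971 in limma). In that fit 5.47% of the genes below the filter passed as higher in ScOE and 2.06% as lower, and among the 15 members below it Elk and na passed, both higher. The related gene eag was at 0.573 to 1.04 FPKM in ScOE and 0.0583 to 0.776 FPKM in Ctrl, and the Shaw-type gene Shaw at 0.237 to 0.538 FPKM in ScOE and 0.0166 to 0.329 FPKM in Ctrl. The inward rectifier gene Irk2 was at 0.340 to 0.934 FPKM in ScOE and at 0.112, 0.107 and 6.57 FPKM in Ctrl, so its Ctrl mean rests on Ctrl 3. The leak channel gene Ork1 was at 0.0333, 0.301, 0.133 and 1.31 FPKM in ScOE and at 0.0126, 0.0580 and 1.02 FPKM in Ctrl. It was highest in ScOE 4 and Ctrl 3, the libraries with the highest sum of enterocyte markers in their groups.

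The gene Ih (FBgn0263397, chromosome 2R, 14276130 to 14300095, plus strand) encodes the cation channel opened by hyperpolarization that is known for pacing rhythmic firing. It fell to 16.7, 16.0, 15.5 and 13.99 FPKM in ScOE 1 to 4, against 26.5, 53.0 and 48.3 FPKM in Ctrl 1 to 3. The ScOE libraries agreed closely, and Ctrl 1 was the nearest of its group to them. The log2 fold change was -1.34 ± 0.24 (adjusted p = 0.0043 in limma). It was -0.50 with equal FPKM totals, where the call was lost (adjusted p = 0.151). The gene na, which encodes the sodium leak channel that sets resting potential in fly clock neurons, moved the other way at far lower levels. It was at 0.205, 0.224, 0.251 and 0.275 FPKM in ScOE and 0.00645, 0.0148 and 0.0173 FPKM in Ctrl, below the filter. Without the filter na passed (log2 0.29, adjusted p = 0.000924 in limma).

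Of the sodium channel genes, para, the main carrier of action potentials in fly neurons, was low in both groups, at 0.122 to 0.258 FPKM in ScOE and 0.136 to 0.319 FPKM in Ctrl, and the groups overlapped. NaCP60E (FBgn0085434, chromosome 2R, 24891614 to 24921677, plus strand), a sodium channel homologue, was far more abundant, at 8.09, 6.71, 6.22 and 8.93 FPKM in ScOE, against 10.2, 11.1 and 10.6 FPKM in Ctrl. Its log2 fold change was -0.46 ± 0.14 (adjusted p = 0.0379 in limma). The call was lost when Ctrl 1, 2 or 3 or ScOE 1, 2 or 3 was left out, with adjusted p of 0.0552, 0.111, 0.0816, 0.0585, 0.0978 and 0.0901, and also without the filter (0.0674) or with upper quartile (0.15) or trimmed-mean scaling (0.0669). NaCP60E and pain lie on opposite strands and share 173 exonic bases at their ends.

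**Figure D3:**
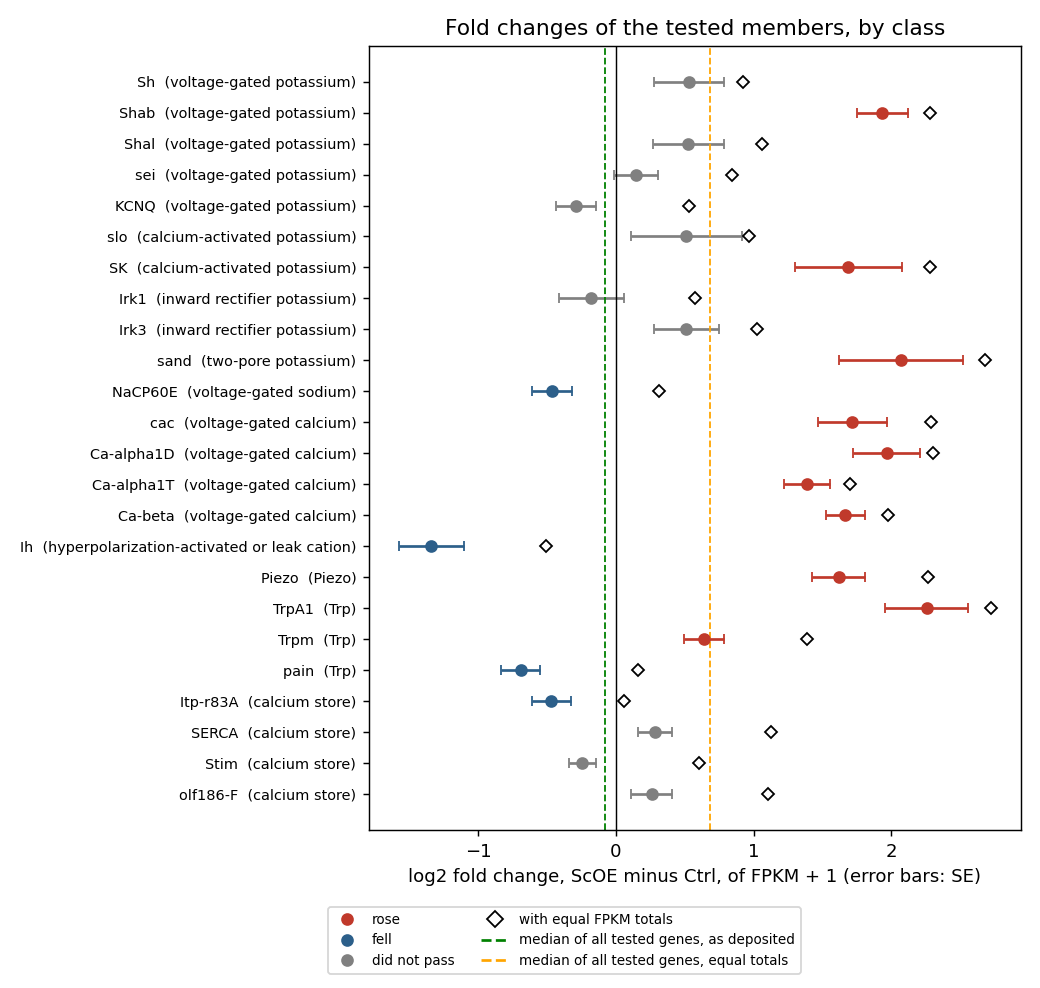
Log2 fold change, ScOE minus Ctrl, of FPKM + 1 for the 24 tested members by class (circles with SE as bars, n = 4 and 3), with the value at equal FPKM totals as open diamonds and the medians of all tested genes as dashed lines. For each of the 10 members that rose, the circle lies right of the median as deposited and the diamond right of the median at equal totals, while pain, NaCP60E and Itp-r83A lie on the other side of 0 at equal totals.

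Of the 5 calcium store genes, SERCA, Stim and olf186-F were among the most abundant members in both groups, while Itp-r83A and RyR were low. Their products fill the endoplasmic reticulum with calcium (SERCA), release it (the inositol trisphosphate receptor Itp-r83A and the ryanodine receptor RyR), sense its loss (Stim) and let calcium in from outside in reply (olf186-F, the fly Orai). Itp-r83A fell, SERCA, Stim and olf186-F did not pass, and RyR was below the filter. Itp-r83A (FBgn0010051, chromosome 3R, 5517117 to 5539411, plus strand) was at 1.27, 1.09, 1.14 and 1.43 FPKM in ScOE, against 1.81, 2.54 and 1.94 FPKM in Ctrl. The groups were apart, with a log2 fold change of -0.47 ± 0.14 (adjusted p = 0.0357 in limma). The call was lost when Ctrl 2 or 3 or ScOE 1, 2 or 3 was left out, with adjusted p of 0.127, 0.0616, 0.0656, 0.0896 and 0.0827, and with upper quartile (0.0964) or trimmed-mean scaling (0.0501).

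SERCA (FBgn0263006, chromosome 2R, 23925077 to 23935884, minus strand) was at 42.5, 42.9, 49.0 and 48.8 FPKM in ScOE 1 to 4, against 41.6, 37.7 and 33.3 FPKM in Ctrl 1 to 3. Although the groups did not overlap, its log2 fold change of 0.28 ± 0.12 did not pass at the deposited scale (adjusted p = 0.109 in limma). It passed with quantile normalization (log2 0.45, adjusted p = 0.0309), upper quartile scaling (log2 0.46, adjusted p = 0.0251), trimmed-mean scaling (log2 0.35, adjusted p = 0.0445), library weights (log2 0.27, adjusted p = 0.0298) and equal totals (log2 1.13, adjusted p = 0.00246). Exons of the opposite-strand gene CG2812 cover 16% of its exon length. Stim (FBgn0045073, chromosome X, 15934495 to 15940451, minus strand) was at 36.1, 36.4, 33.7 and 38.6 FPKM in ScOE, against 43.2, 43.5 and 42.1 FPKM in Ctrl. Its groups were also apart, with a log2 fold change of -0.24 ± 0.10 (adjusted p = 0.0887 in limma) that was 0.60 with equal totals (adjusted p = 0.0267). With library weights Stim passed as lower (log2 -0.28, adjusted p = 0.0119).

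For olf186-F (FBgn0041585, chromosome 2R, 17843442 to 17860582, plus strand) the groups overlapped, at 39.1, 35.8, 34.9 and 38.9 FPKM in ScOE and 24.5, 33.8 and 35.4 FPKM in Ctrl (log2 0.26, adjusted p = 0.207 in limma). It passed with equal FPKM totals (log2 1.10, adjusted p = 0.00252). The ratio of olf186-F to Stim was 1.08, 0.984, 1.03 and 1.01 in ScOE 1 to 4, against 0.567, 0.775 and 0.840 in Ctrl 1 to 3. SERCA relative to Itp-r83A was 33.6, 39.4, 42.9 and 34.0 in ScOE, against 22.9, 14.9 and 17.2 in Ctrl. Neither ratio overlapped between groups, nor did the single levels of SERCA, Itp-r83A and Stim. RyR was at 0.0101, 0.0249, 0.0941 and 0.00860 FPKM in ScOE and at 0, 0.00351 and 0.00823 FPKM in Ctrl. Its highest value was in ScOE 3, the library with the highest sums of muscle and of enteroendocrine markers.

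**Figure D4:**
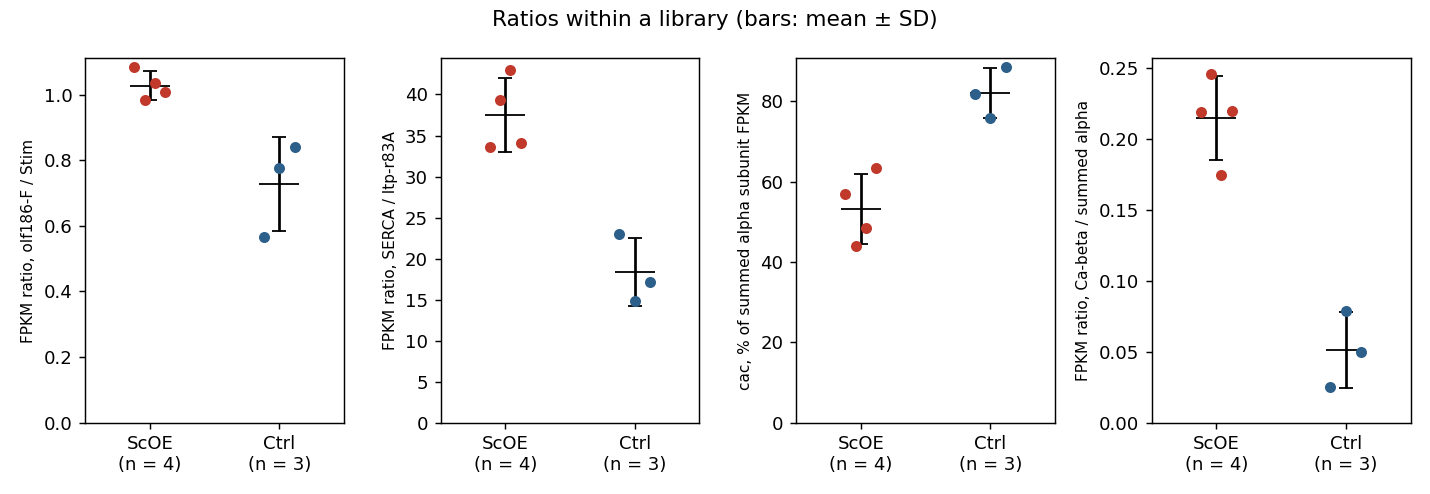
Within-library FPKM ratios and shares in ScOE (left, n = 4) and Ctrl (right, n = 3) libraries, with points for libraries and bars for mean ± SD. In all 4 panels the groups do not overlap: olf186-F to Stim, SERCA to Itp-r83A and Ca-beta to the summed pore subunits are higher in ScOE, and the share of cac among the 3 pore subunits is lower.

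At the deposited scale the members' summed level was close between the groups while its make-up differed. All members together summed to 279.7 ± 20.3 FPKM in ScOE and 279.6 ± 27.7 FPKM in Ctrl (SD, n = 4 and 3). The FPKM of all genes summed to less in every ScOE library than in any Ctrl library. As a share of that total, the members held 0.0228% ± 0.00301 in ScOE and 0.0125% ± 0.00252 in Ctrl, a ratio of 1.82. Dividing by the total also raised most other genes in ScOE. At equal FPKM totals the middle tested gene stood at log2 0.68, and 4454 of 8421 tested genes were called as rises. The ratio of 1.82 therefore does not by itself set the members apart. Members at 1 FPKM or more numbered 23 to 27 in the ScOE libraries and 13 to 19 in the Ctrl libraries. Over all genes these counts were 8093 to 8381 in ScOE and 7791 to 8182 in Ctrl. Store genes made up 43.2% ± 2.25 of the sum in ScOE and 40.9% ± 3.47 in Ctrl. The share of voltage-gated calcium channel genes was 4.97% ± 0.780 in ScOE and 0.535% ± 0.313 in Ctrl, and that of Ih with na was 5.69% ± 0.796 in ScOE and 15.0% ± 3.77 in Ctrl. In order of level, SERCA, olf186-F, Stim, pain, KCNQ and Ih led in ScOE, where olf186-F, Stim and pain overlapped in their libraries, as did KCNQ and Ih. In Ctrl, pain was above all others, and Stim, Ih, SERCA and olf186-F followed, each overlapping its neighbour.

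The ScOE libraries were not alike for these genes. In 12 of the 39 members both ScOE 2 and ScOE 3 were above both ScOE 1 and ScOE 4. They were Sh, Shab, Shal, slo, SK, Elk, eag, Ca-alpha1D, Ca-alpha1T, Ca-beta, trp and RyR. Of these, trp and RyR were far below 1 FPKM in every library. Of the tested members 8 of 24 had this order, beside 14.3% of all tested genes. Of the members that rose it was 5 of 10, beside 24.5% of all genes that rose. The order was not planned and was chosen after the values were seen, so these shares are descriptions only. The summed defining enteroendocrine markers had the same order, at 5873 and 8006 FPKM in ScOE 2 and 3 and 2684 and 4022 FPKM in ScOE 1 and 4. Singly, 4 of the 8 markers (AstA, AstC, CCHa1 and CCHa2) had that order, and pros, Tk, NPF and Dh31 did not. Piezo, TrpA1 and Trpm were instead highest in ScOE 4. In Ctrl, 7 of the 10 members that rose were highest in Ctrl 3, against 31.3% of all genes that rose. The marker sum was also highest there, through NPF and CCHa2, while the other 6 of the 8 markers were highest in Ctrl 2.

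Genes around these channels were counted from lists of accessory subunits, calcium handling and other channel families. Of 7 tested accessory genes 5 rose and none fell, out of 15 matched in the table, where 17.6% of all tested genes rose and 21.3% fell. The lists were chosen with earlier results of these data known. The auxiliary calcium channel subunit gene stj, of the alpha2delta type, was at 4.18, 6.14, 6.07 and 4.96 FPKM in ScOE, against 0.0340, 0.253 and 0.160 FPKM in Ctrl (log2 2.46 ± 0.16, adjusted p = 7.93e-05 in limma). Teh2, a homologue of the sodium channel subunit gene tipE, was at 11.4, 14.3, 14.2 and 9.15 FPKM in ScOE and 0.753, 0.795 and 1.45 FPKM in Ctrl (log2 2.73 ± 0.20). Its relative Teh4 was at 1.08 to 1.65 FPKM in ScOE, and in Ctrl was listed at 0 in Ctrl 1 and 3 and at 0.0433 FPKM in Ctrl 2 (log2 1.22). Of the 5 that rose, stj, Teh4 and CG4587 reached 1 FPKM in no Ctrl library (91.4% of all such genes rose). Teh2 reached it only in Ctrl 3, so it too passed the filter only with ScOE libraries. The list median of log2 fold changes was 1.22.

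In the calcium handling list 8 of 25 tested genes rose and 2 fell, beside 17.6% and 21.3% of all tested genes. Its median log2 fold change was -0.01. CanB, a regulatory subunit of the calcium-dependent phosphatase calcineurin, was at 39.8, 61.0, 62.6 and 49.4 FPKM in ScOE, against 1.02, 4.30 and 5.73 FPKM in Ctrl (log2 3.68 ± 0.41, adjusted p = 0.000582 in limma). The more abundant gene CanB2 did not pass, at 98.1 to 128.5 FPKM in ScOE and 104.7 to 130.5 FPKM in Ctrl (log2 -0.11, adjusted p = 0.579 in limma). IP3K1, a kinase that converts inositol trisphosphate, the messenger that opens Itp-r83A, was at 53.1 to 58.3 FPKM in ScOE and 21.0 to 27.1 FPKM in Ctrl (log2 1.23 ± 0.12). The calcium sensor gene Frq1 was at 5.01 to 9.37 FPKM in ScOE and 0.541 to 2.45 FPKM in Ctrl (log2 1.92). EMRE, a subunit of the mitochondrial calcium uniporter complex, was at 59.6 to 73.6 FPKM in ScOE and 86.0 to 114.7 FPKM in Ctrl (log2 -0.60). MCU of the same complex, listed as CG18769, rose instead, at 2.26 to 5.81 FPKM in ScOE and 0.813 to 1.68 FPKM in Ctrl (log2 1.31, adjusted p = 0.011 in limma). The calcineurin catalytic subunit gene CanA-14F was at 13.1 to 15.2 FPKM in ScOE and 18.3 to 35.9 FPKM in Ctrl (log2 -0.72). With equal FPKM totals 18 genes of this list rose and none fell. With 1 library left out, 6 to 9 rose and 0 to 3 fell, the 0 being without Ctrl 2.

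Among other channel families, 2 of 16 tested genes rose and 3 fell, out of 63 matched, shares near those of all tested genes (17.6% and 21.3%). The median of their log2 fold changes was -0.10. The chloride channel gene ClC-a was at 8.89 to 15.0 FPKM in ScOE and 0.0701 to 0.809 FPKM in Ctrl (log2 3.28 ± 0.24, adjusted p = 0.00011 in limma). The acetylcholine receptor subunit gene nAChRalpha5 averaged 1.16 ± 0.378 FPKM in ScOE and 0.197 ± 0.152 FPKM in Ctrl (log2 0.84). Both ClC-a and nAChRalpha5 reached 1 FPKM in no Ctrl library and entered the test only through ScOE, where 91.4% of such genes rose. The bestrophin chloride channel gene Best1 was at 6.06 to 14.5 FPKM in ScOE and 24.7 to 36.1 FPKM in Ctrl (log2 -1.45). Tmem63, which encodes a channel opened by osmotic stretch, was at 9.63 to 16.5 FPKM in ScOE and 19.0 to 24.9 FPKM in Ctrl (log2 -0.75), and the anoctamin family gene Axs at 2.65 to 3.42 FPKM in ScOE and 4.12 to 8.36 FPKM in Ctrl (log2 -0.75). With equal FPKM totals 8 genes of this list rose and none fell. With 1 library left out, 1 to 2 rose, with 1 without ScOE 3, and 1 to 3 fell, with 1 without Ctrl 2.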

How the data were processed

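RNA from sorted midgut cells was sequenced in 4 ScOE and 3 Ctrl libraries. The authors deposited FPKM values, made with TopHat2 2.0.10, Cufflinks 2.2.1 and BDGP6 per the submitters' processing notes. Any further scaling, the strand setting and the annotation release are not given in the sources used here, and sequencing depth is unknown. FPKM was used as deposited. Members and lists were matched by symbol or FlyBase ID (197 of 201 list entries), and both were chosen with earlier results of these data known. Testing used limma 3.58.1 (R 4.3.3) after adding 1 FPKM and taking log2, two-sided with a variance trend, as ScOE minus Ctrl. Genes needed 1 FPKM or more in 3 or more libraries, and p-values were adjusted by Benjamini-Hochberg over all tested genes. The test was tried on simulated data. Members that passed, or averaged 5 FPKM in a group, were described by library, and of each channel or calcium list up to 3 genes per direction with the smallest adjusted p. CanB2 and MCU were added beside CanB and EMRE. Coordinates and exon overlaps are 1-based, from the BDGP6 annotation, where para and Ca-beta carry other IDs and were matched by symbol. Promoter sequences were not analysed here. Alternatives were other pseudocounts, filters, scalings and variance models, a replicate block, and each library left out. Within-library ratios, their leave-one-out values and the orders of libraries within a group were added after the data were seen. Plots used matplotlib 3.10.9 (Python 3.11.15).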

Additional observations from a re-analysis of the deposited data

Results flagged for a closer look

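Among 107 sets of 4 ScOE values checked, 6 had 1 library set apart from the other 3 by more than Dixon's limit, which chance passes in about 1 of 20 sets. No ion channel or calcium store gene was among them. ScOE 3 was the highest for the muscle markers Mhc (4.54 FPKM), Mlc2 (35.5 FPKM), up (16.5 FPKM) and wupA (27.7 FPKM), where the other ScOE libraries were at most 0.0398, 0.967, 0.452 and 0.241 FPKM for the 4 genes in that order. ScOE 3 was also the highest of the ScOE libraries for the enterocyte protease gene Jon65Ai (10.7 FPKM). ScOE 4 was the lowest for the muscle gene sls (0.136 FPKM).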

How the results depend on the processing

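With 4 and 3 libraries and no read numbers, small differences and levels far below 1 FPKM are poorly resolved. Over 24 tested members and all alternatives, 375 member results kept their direction and side of the threshold, 20 lost the call, 14 gained one and 9 changed sign. The cause of these changes was not tested. The 10 rises were kept under every alternative that tested them except the replicate block, where Trpm missed (adjusted p = 0.0544). A minimum of 5 FPKM left 13 members, of which 5 rose, and equal FPKM totals gave 18 rises and 0 falls. Falls numbered 2 with upper quartile scaling, trimmed-mean scaling and the replicate block. The median log2 fold change of tested members, 0.52, was 0.78 and 0.66 with pseudocounts of 0.1 and 0.5, 0.26 (0.2615) without a filter, 0.26 (0.2609) with the 5 FPKM minimum, 0.32 with quantile normalization and 1.08 with equal totals. Leaving out 1 library gave 2480 to 3179 changed genes (3280 with all), 10 rises each time, 2 to 4 falls and a median of 0.39 to 0.63.

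Equal totals turned the log2 fold changes of KCNQ to 0.53, Irk1 to 0.58, NaCP60E to 0.32, pain to 0.16, Itp-r83A to 0.058 and Stim to 0.60. Library weights turned sei to -0.040 and slo to -0.10. Leaving out 1 library put Irk1 between -0.30 and 0.036, and the log2 difference of the inward rectifier share of all members between -0.40 and 0.066, where it was -0.19 with all libraries.

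The replicate numbers did not pair the libraries: deviations of same-numbered libraries from their group means correlated at 0.524, -0.0406 and 0.0816 for numbers 1, 2 and 3. With the replicate block, which takes the difference from 6 of the 7 libraries, 2540 genes were called, 9 members rose and 2 fell, and NaCP60E and Itp-r83A lost their calls. Of the calcium handling list 4 genes rose and 0 fell with the block.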
